A study of Mus musculus with 3 samples.

Results

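Inner and outer hair cells of the cochlea share the machinery that turns sound into an electrical signal, but they do different work. Outer hair cells (OHCs) change length with voltage through the motor protein prestin (*Slc26a5*) and amplify the motion of the organ of Corti, whereas inner hair cells (IHCs) release glutamate at ribbon synapses onto spiral ganglion neurons (SGNs). Besides the textbook markers of each type, 9 less familiar genes stood apart between the 2 types in these data, and they are described here among the 32285 genes counted. The OHC-biased genes were *1600022D10Rik*, *Zfp365*, *1700025G04Rik*, *Elovl2* and *Bmp3*, and the IHC-biased genes were *Tpbgl*, *Myl4*, *Spock1* and *Ripor3*. They were chosen for their difference between OHC-like and IHC-like cells in these same libraries, so that difference is given as a description and carries no test.

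Cochlear tissue of C57/B6 mice was freed from the bony wall, a step in which part of the basal turn was lost, and was dissociated with collagenase IV and counted with the 10x Chromium 3′ kit, in which each unique molecular identifier (UMI) stands for 1 captured polyadenylated RNA molecule. One library came from postnatal day 14 (P14) and 2 came from postnatal day 28 (P28, replicates 1 and 2), each pooled from 14 cochleae of 7 mice, so that single mice cannot be told apart. Barcodes with 200 to 6000 genes and at most 15% mitochondrial UMIs were kept. These were 1662 barcodes at P14 with 7432047 UMIs, 5651 barcodes in P28 replicate 1 with 24596587 UMIs and 7065 barcodes in P28 replicate 2 with 23300859 UMIs. The median depth was 2477, 2421 and 2037 UMIs per barcode. Between 10 and 54 barcode sequences occurred in both libraries of a pair.

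Clusters of cells were named from marker genes, with the 9 genes and their relatives left out of the clustering. The OHC-like class held 277 cells at P14 and 364 and 285 cells at P28. The IHC-like class held 60 cells at P14 and 114 and 76 cells at P28. *Slc26a5* was at 533 to 2026 CPM (the UMIs of a gene per 1000000 UMIs of the class in that library) in the OHC-like class and at 0 to 4.0 CPM in the IHC-like class. The IHC-like class in turn had 1593 to 1852 CPM of *Slc17a8*, the vesicular glutamate transporter of IHCs, against 16.0 to 79.0 CPM in the OHC-like class. It also carried markers of the supporting cells that surround IHCs. The 4 markers of inner phalangeal and inner border cells (IPhC/IB) summed to 943 to 2262 CPM in the IHC-like class and to 385 to 474 CPM in the OHC-like class. In the class named for IPhC/IB cells at P28 the same 4 markers summed to 3451 and 3417 CPM. Among them *Slc1a3* was at 194, 894 and 797 CPM and *Sox2* at 19.8, 245 and 264 CPM in the IHC-like cells of the 3 libraries, while *Matn4* had no UMI in 2 of these 3 sums. The fourth, *Gata3*, is also known from hair cells. The OHC-like class carried markers of other cells too. In P28 replicate 2 markers of red blood cells, fibrocytes and granulocytes summed to 6526, 979 and 673 CPM in it, against 94.2, 483 and 0 CPM in IHC-like cells. *Otof*, a marker used to name IHCs, was at 69.8, 496 and 437 CPM in OHC-like cells, against 3328, 3043 and 2935 CPM in IHC-like cells. Of the other IHC markers, *Calb2* was at 378, 266 and 252 CPM in OHC-like cells, against 3819, 3615 and 3801 CPM. *Tbx2* was at 0.533, 6.08 and 11.5 CPM in them, against 269, 491 and 461 CPM. Whether the *Otof* RNA was made by the OHC-like cells themselves was not tested. Of the OHC-like cells 1.44%, 12.9% and 19.3% had doublet scores among the highest 8%, against 8.33%, 11.4% and 3.95% of IHC-like cells.

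Positions are given on the mouse genome GRCm38, the build called mm10, and all but one of the genes are annotated as protein coding. *1600022D10Rik* is a long intergenic RNA (ENSMUSG00000117315) at chr17:71144538-71181987 on the plus strand. A longer model on the same strand, *Gm26561*, spans its whole length and was not counted separately here. Only the outer ends of the models were compared, not their exons, so whether reads from the 2 can be told apart was not tested. *Zfp365* lies at chr10:67886103-67912662 (minus strand) and encodes a zinc finger protein that binds *Disc1*. *1700025G04Rik* lies at chr1:151852403-152090125 (minus strand) and encodes a protein of little known function. *Elovl2* lies at chr13:41182381-41220405 (minus strand) and encodes an elongase of very long polyunsaturated fatty acids. *Bmp3* lies at chr5:98854415-98884396 (plus strand) and encodes a bone morphogenetic protein (BMP) that counteracts other BMPs.

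Of the IHC-biased genes, *Tpbgl* lies at chr7:99624082-99627103 (minus strand), has a single exon and encodes a relative of the trophoblast glycoprotein *Tpbg*. The long intergenic RNA *Gm10605* overlaps part of it on the other strand. *Myl4* lies at chr11:104550663-104595753 (plus strand) and encodes an essential myosin light chain of atrial and embryonic muscle. *Spock1* lies at chr13:57421195-57908332 (minus strand) and encodes testican-1, a proteoglycan of the extracellular matrix. *Ripor3* lies at chr2:167980164-168010618 (minus strand) and belongs to the family of *Ripor2*, whose protein is found in hair cell bundles.

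Start-site regions were read from RefSeq (GRCm38.p6), from 250 bases before to 50 bases after the start, and 7 of the 9 genes had one. The 2 shown here are the one with the most G and C and the one with a match to a searched motif. That of *Elovl2* had 84.7% G and C and 56 CpG dinucleotides, at percentile 99.9 of 32851 such regions, whose median was 52.7% and 7 CpG. A second start of *Elovl2* had 76.7%, *1700025G04Rik* 75.3%, *Spock1* 64.0%, *Myl4* 61.7%, *Zfp365* 61.3%, *Tpbgl* 58.3% and *Ripor3* 53.7%. Capitals in the *Zfp365* region mark TATAAA, which starts 185 bases before the start site. It was the only match among these regions in a search, on both strands, for TATAAA (13.6% of all regions), TGGGAA (the core bound by the Ikaros family, 25.6%), AGGTGT (13.7%) and CAGCTG (16.3%).
Elovl2, chr13:41220354-41220653, minus strand: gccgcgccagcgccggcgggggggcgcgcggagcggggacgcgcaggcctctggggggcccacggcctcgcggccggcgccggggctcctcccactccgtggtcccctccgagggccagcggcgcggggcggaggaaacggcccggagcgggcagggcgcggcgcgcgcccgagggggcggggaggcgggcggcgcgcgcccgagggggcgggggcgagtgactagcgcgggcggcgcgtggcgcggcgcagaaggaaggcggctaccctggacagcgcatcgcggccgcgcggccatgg
Zfp365, chr10:67912613-67912912, minus strand: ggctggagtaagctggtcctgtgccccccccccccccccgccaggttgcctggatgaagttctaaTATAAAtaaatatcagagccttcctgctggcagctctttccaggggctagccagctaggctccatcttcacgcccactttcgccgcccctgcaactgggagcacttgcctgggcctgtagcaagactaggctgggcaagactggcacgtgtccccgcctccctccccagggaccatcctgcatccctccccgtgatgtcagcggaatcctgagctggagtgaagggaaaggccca

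In every library each of the 9 genes was higher in its own hair cell class than in the other one, which is the pattern they were chosen for. *1600022D10Rik* was at 116 CPM in OHC-like cells at P14 and at 260 and 224 CPM at P28, with 0, 0 and 2 UMIs in the IHC-like cells of the same libraries. *Zfp365* had 103, 180 and 179 CPM in the OHC-like class, with 0, 5 and 1 UMIs in IHC-like cells. *Elovl2* was at 33.6, 143 and 134 CPM, with 0, 0 and 1 UMIs in IHC-like cells. Neither the long intergenic RNA nor the elongase thus had more than 2 UMIs in the IHC-like cells of any library. *Bmp3* had 77.3, 77.4 and 76.7 CPM in the OHC-like class, with 0, 0 and 1 UMIs in IHC-like cells. *1700025G04Rik* had 229, 133 and 113 CPM in the OHC-like class and, unlike the other OHC-biased genes, 15.8, 14.4 and 13.5 CPM (4, 14 and 8 UMIs) in IHC-like cells.

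The separation of the IHC-biased genes ran the other way. *Tpbgl* was at 158, 240 and 237 CPM in IHC-like cells, and only 1 UMI of it was found in all OHC-like cells, in P28 replicate 1. *Myl4* was at 693 CPM in IHC-like cells at P14 and at 171 and 172 CPM at P28, with 2, 1 and 1 UMIs in OHC-like cells. *Spock1* was at 333, 429 and 516 CPM in IHC-like cells and at 4.80, 4.46 and 2.15 CPM in OHC-like cells. *Ripor3* was at 491, 889 and 688 CPM in IHC-like cells and at 2.66, 2.43 and 4.30 CPM in OHC-like cells. No class of the same library lay above the IHC-like class for *Tpbgl*, *Spock1* or *Ripor3*. On the log2 scale of the edgeR fit, OHC-like minus IHC-like cells, the 9 genes ranged from 3.43 for *1700025G04Rik* to 7.71 for *Elovl2* and from −6.55 for *Spock1* to −9.48 for *Tpbgl*.

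Where the other class had no UMI, the difference is a lower bound set against 3 counts. At P28 replicate 1 this gave at least 84.0-fold more *1600022D10Rik*, at least 46.4-fold more *Elovl2* and at least 25.0-fold more *Bmp3* in OHC-like cells. At P14, where the IHC-like class held only 252424 UMIs, the same bounds were 9.73-fold, 2.83-fold and 6.50-fold. *1700025G04Rik* had ratios of 14.5, 9.18 and 8.42, with exact 95% intervals of 5.61 to 53.3, 5.40 to 17.0 and 4.17 to 19.8. These intervals cover counting error only.

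**Figure D1:**
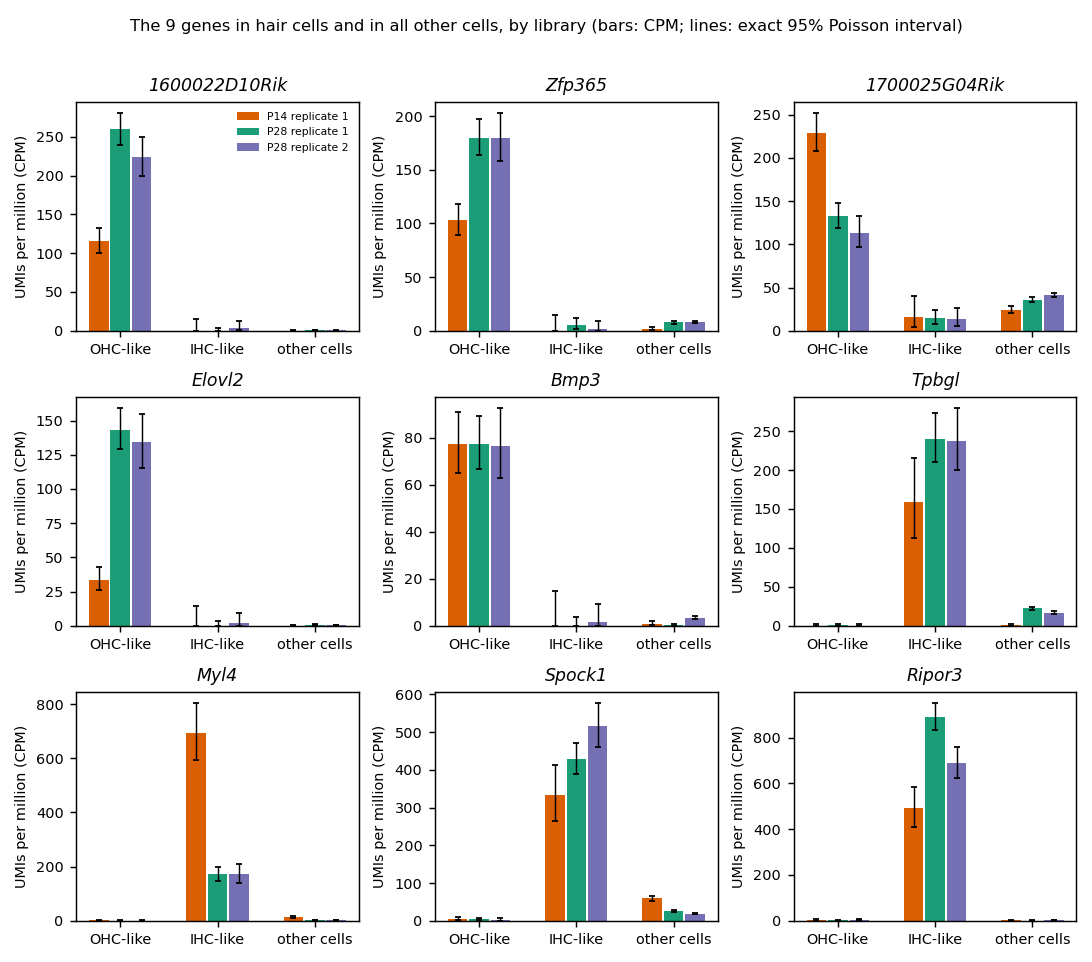
Level of each of the 9 genes in CPM (vertical axis) in OHC-like cells, IHC-like cells and all other cells, with 1 bar per library and exact 95% Poisson intervals as lines. The first 5 panels are high in OHC-like cells, as for Elovl2 at 33.6, 143 and 134 CPM, and the last 4 in IHC-like cells, as for Ripor3 at 491, 889 and 688 CPM.

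The same split, for which the genes were chosen, can be counted cell by cell. These counts and those after thinning are a description too, and cells of a library are not replicates. At least 1 of the 5 OHC-biased genes was found in 244 of 277 OHC-like cells at P14 and in 353 of 364 and 263 of 285 cells at P28, and all 5 were found together in 5, 32 and 11 cells. At least 1 of the 4 IHC-biased genes was found in 54 of 60, 112 of 114 and 72 of 76 IHC-like cells, and all 4 together in 11, 47 and 36 cells. Of the UMIs of the 9 genes, the OHC-biased ones made up 98.5%, 99.0% and 99.0% in OHC-like cells and 0.937%, 1.12% and 1.34% in IHC-like cells.

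Because the classes differed in depth, each cell was also thinned to 1000 UMIs, leaving out shallower cells (17, 2 and 0 OHC-like cells, 29, 14 and 4 IHC-like cells). Of the thinned OHC-like cells 99 of 260, 181 of 362 and 164 of 285 had an OHC-biased gene, against 0%, 0% and 1.39% of the thinned IHC-like cells. Of the thinned IHC-like cells 83.9%, 82.0% and 83.3% had an IHC-biased gene, against 0%, 0.552% and 0.702% of the OHC-like cells. For *Ripor3* alone these shares were 32.3%, 60.0% and 61.1% of IHC-like cells, and without thinning 43.3%, 90.4% and 86.8% at median depths of 1025.5, 9130.5 and 8007.5 UMIs. The unthinned share of OHC-like cells with *Ripor3*, at median depths of 6510, 5247.5 and 3754 UMIs, was 1.44%, 1.65% and 2.11%.

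The deepest barcodes, with over 3000 genes or over 15000 UMIs, were 95, 100 and 50 OHC-like and 12, 74 and 56 IHC-like cells. They belong to the barcodes that the choice of the genes refers to, so their values are a description too. In these cells alone *Elovl2* had 21.5, 137 and 130 CPM in the OHC-like class and had 0, 0 and 1 UMIs in IHC-like cells. *1600022D10Rik* had 121, 249 and 233 CPM in the OHC-like class, with 0, 0 and 2 UMIs in IHC-like cells. *Ripor3* was at 498, 810 and 656 CPM in IHC-like cells and at 2.81, 0.845 and 4.19 CPM in OHC-like cells. *Tpbgl* was at 181, 249 and 232 CPM in IHC-like cells, with 0, 1 and 0 UMIs in OHC-like cells.

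The hair cell classes joined clusters of unlike depth, and levels varied among them. At P28 replicate 1 the IHC-like class joined 84 deep cells with 30 shallow ones. *Ripor3* was at 821 CPM in the deep cells and at 2563 CPM in the shallow ones, whereas *Tpbgl* was at 248 and 52.8 CPM and *Spock1* at 440 and 159 CPM, the shallow values resting on 97, 2 and 6 UMIs. At P14 the OHC-like class joined 192, 54 and 31 cells in 3 clusters. *1700025G04Rik* was at 178, 325 and 327 CPM in them, so that the largest cluster had the lowest level.

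The libraries of the 2 ages ordered the genes differently. Within its own class *Elovl2* was lower at P14, with 33.6 CPM against 139 ± 6.60 CPM (SD, n = 2) at P28, a ratio of 4.13. *1600022D10Rik* was at 116 and 242 ± 25.4 CPM, a ratio of 2.09, and *Zfp365* was at 103 and 180 ± 0.440 CPM, a ratio of 1.75. *Ripor3* was at 491 and 789 ± 142 CPM in IHC-like cells. For these 4 genes the exact 95% Poisson interval of the P14 library lay below those of both P28 libraries. It lay above both for *Myl4*, with 693 CPM at P14 and 171 ± 0.336 CPM at P28 (0.247 of the P14 level), and for *1700025G04Rik*, with 229 and 123 ± 13.6 CPM (0.536 of it). How many of all genes have intervals parted in this way was not counted, so these counts of genes have no background beside them. An SD of 2 libraries can lie far below counting error. The P28 intervals were 164 to 197 and 158 to 203 CPM for *Zfp365* and 146 to 199 and 140 to 208 CPM for *Myl4*.

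The intervals overlapped for the other 3 genes. *Bmp3* had nearly the same level at both ages, at 77.3 CPM and 77.1 ± 0.466 CPM (P28 intervals 66.8 to 89.2 and 62.9 to 92.7 CPM). *Tpbgl* was at 158 and 239 ± 2.11 CPM and *Spock1* at 333 and 473 ± 61.9 CPM, with P14 values resting on 40 and 84 UMIs. P14 had a single library, so no test between the ages was possible, and age cannot be told apart from library. Some of these values differed between deep and other cells, and whether depth was the cause was not tested. At P14 *Myl4* was at 542 CPM in the 12 IHC-like cells with over 3000 genes or 15000 UMIs and at 1090 CPM in the other 48 cells, and *Elovl2* was at 21.5 and 49.6 CPM in the corresponding OHC-like cells. In both groups of cells *Myl4* was higher, and *Elovl2* lower, at P14 than in the same groups of the P28 libraries. There *Myl4* was at 168 and 160 CPM in the deep and 201 and 267 CPM in the other cells. *Elovl2* was there at 137 and 130 CPM in the deep and 149 and 136 CPM in the other cells. The separation of 2 genes did not hold in both groups of cells. *1700025G04Rik* was at 271 CPM at P14 against 132 and 128 CPM at P28 in the deep cells, but in the other cells its P14 level of 173 CPM (interval 146 to 205) overlapped that of P28 replicate 1 at 133 CPM (114 to 155), with 106 CPM in replicate 2. *Ripor3* was at 473 CPM at P14 against 1774 and 956 CPM in the other IHC-like cells, but in the deep cells its P14 level of 498 CPM (401 to 612) overlapped that of P28 replicate 2 at 656 CPM (589 to 728).

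Outside the hair cells the 9 genes parted into narrow and wide ones. *Elovl2* and *1600022D10Rik* had 0 to 12 and 1 to 15 UMIs in all cells other than hair cells of a library, that is at most 0.567 and 0.709 CPM. If these UMIs had come with free OHC RNA in its ratio to *Ocm*, the abundant calcium buffer of OHCs, 0.853, 6.65 and 3.13 UMIs of *Elovl2* would be expected where 0, 12 and 10 were counted, and 2.94, 12.04 and 5.23 of *1600022D10Rik* where 1, 15 and 12 were counted. The exact intervals covered the expected number at P14 and in P28 replicate 1 and lay above it in P28 replicate 2. The expected numbers take all *Ocm* outside the hair cells as free RNA, and their own counting error is left out. Where these UMIs came from was not tested. *Ripor3* was at 1.51, 0.756 and 3.99 CPM outside the hair cells. *1700025G04Rik* was at 24.1, 36.1 and 41.3 CPM, *Spock1* at 59.8, 26.1 and 19.0 CPM and *Myl4* at 13.6, 3.36 and 1.92 CPM. *Tpbgl* was at 0.566, 22.4 and 16.8 CPM and *Zfp365* at 2.07, 7.85 and 8.02 CPM, and these 2 cannot be set against age because the P14 library had no SGN-like class.

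The hair cells that chose the genes do not enter a comparison of the remaining classes with each other, and there the genes could be tested. Each of 16 named classes was compared with all other cells that were not hair cells (edgeR quasi-likelihood test on UMIs summed per class and library, Benjamini-Hochberg adjustment over all genes). Of the combinations of gene and class, 74 had enough UMIs to be tested, and 9 were called higher and 20 lower at an adjusted p under 0.05. Only 9 classes could be fitted without P28 replicate 1, where 0 and 0 were called, or without P28 replicate 2, where 2 and 3 were called. Over all genes and classes 12.1% of the tests were called higher and 15.8% lower, so the number called higher is near the background. The rest of each comparison holds all other classes, so 1 class with a high level raises the rest for every other class. Higher and lower calls of the same gene are therefore not independent. Among the classes in which a gene was called lower, the share of all genes called lower was 14.1% in B cell-like, 19.1% in fibroblast-like, 12.6% in fibrocyte-like, 26.3% in IPhC/IB-like, 22.4% in ISC/HeC/OSC-like, 17.9% in macrophage-like, 12.8% in pericyte-like, 21% in RM-like, 42.5% in SGN-like and 30% in TBC-like cells. *Elovl2* was tested in 0 classes, *1600022D10Rik* and *Bmp3* in 1 class each and *Ripor3* in 7, and none of these was called.

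SGN-like cells, found in the P28 libraries only (334 and 296 cells), held both *Tpbgl* and *Zfp365*. *Tpbgl* was at 130 and 103 CPM in them and at a mean of 1.57 CPM in the rest (log2 fold change 6.08 ± 0.18, SE, with an adjusted p of 7.24e-09, edgeR quasi-likelihood test). Both values lay below those of IHC-like cells in the same libraries and above every other class. *Zfp365* was at 30.7 and 34.0 CPM in SGN-like cells and at a mean of 3.41 CPM in the rest (log2 fold change 3.12 ± 0.17, SE, with an adjusted p of 3.36e-07, edgeR). It stood second to OHC-like cells in both libraries, with an interval that overlapped the next class. At P14 the class of Schwann and satellite glial cells had 80.0 CPM of *Zfp365* from 6 UMIs, with an interval that overlapped the OHC-like one. In the SGN-like comparison 36.2% of all genes were called higher. Within the class *Tpbgl* was at 141 and 110 CPM in the largest cluster of SGN-like cells and at 67.3 and 52.5 CPM in a shallower one.

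*Spock1* was high in classes of supporting and sulcus cells, those next to IHCs among them. In IPhC/IB-like cells, named in the P28 libraries only, it was at 154 and 145 CPM against a mean of 14.6 CPM in the rest (log2 fold change 3.44 ± 0.16, SE, with an adjusted p of 6.65e-09, edgeR, where 18.6% of genes were called higher). In the class of inner sulcus, Hensen's and outer sulcus cells (ISC/HeC/OSC-like) it was at 91.4, 53.1 and 43.4 CPM against a mean of 19.6 CPM (log2 fold change 1.98 ± 0.13, SE, with an adjusted p of 0.000887, edgeR, background 20.3%). Its level varied among the clusters of this class. At P14 a cluster of 125 ISC/HeC/OSC-like cells had 251 CPM of *Spock1*, and the cluster led by *Inhba* and *Mia* had 119 and 96.2 CPM at P28. In Deiters' and pillar cells (DC/PC-like) *Spock1* was at 130 CPM at P14 and at 29.6 and 6.47 CPM at P28, and the test of that class gave 0.56 ± 0.39 on the log2 scale (SE, with an adjusted p of 0.379, edgeR). Without P28 replicate 1 the call in ISC/HeC/OSC-like cells was lost (2.07 on the log2 scale). *Spock1* was lower than in the rest in 8 classes, among them tympanic border cells (TBC-like, −3.99 ± 0.30 on the log2 scale). In these classes 12.6% to 42.5% of all genes were called lower. The rest they were compared with held the IPhC/IB-like and ISC/HeC/OSC-like cells, in which *Spock1* was high. Without P28 replicate 1 the calls in TBC-like (−4.40), fibroblast-like, RM-like and B cell-like cells were lost. Those in fibrocyte-like, macrophage-like, pericyte-like and SGN-like cells were lost when genes with low counts were not filtered out. The levels in IPhC/IB-like cells lay below those of IHC-like cells in the same library, in which markers of IPhC/IB cells were also found, and the part of such cells in the IHC-like level of *Spock1* was not tested.

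*1700025G04Rik* was the widest of the 9 genes. It was highest among the remaining classes in a cluster of 228 cells at P28 named for marginal cells of the stria vascularis (MC-like), at 131 and 130 CPM, where its log2 fold change was 1.98 ± 0.26 (SE, with an adjusted p of 1.15e-05, edgeR, background 4.13%). The name fits these cells only in part. The cluster was also marked by 4 fibrocyte markers, and in the 68 cells of P28 replicate 1 *Kcnq1*, *Kcne1* and *Esrrb* had no UMI and the 4 marginal cell markers summed to 473 CPM, against 3849 CPM in replicate 2. Clustered at resolution 2, only 21 cells were MC-like, so the level of the gene in marginal cells is not settled by these values. It was also called higher in fibrocyte-like cells (110 and 95.04 CPM, 1.39 ± 0.22, background 7.39%), TBC-like cells (76.5, 63.7 and 61.5 CPM, 1.17 ± 0.15, background 23.4%) and SGN-like cells (0.57 ± 0.13). At P28 the intervals of MC-like and OHC-like cells overlapped in both libraries, and in replicate 2 the MC-like level stood above the OHC-like one of 113 CPM. The gene was called lower in IPhC/IB-like, ISC/HeC/OSC-like and Reissner's membrane cells (RM-like, −1.27 ± 0.25). The lower calls in ISC/HeC/OSC-like and RM-like cells were lost without P28 replicate 1 (−1.10 and −1.07) or without P28 replicate 2 (−0.94 and −1.36). That in IPhC/IB-like cells was lost with the study's limits of 3000 genes and 15000 UMIs (−0.33), with DESeq2 and without the filter on low counts. The calls in MC-like and fibrocyte-like cells were lost when genes with low counts were not filtered out (1.95 and 1.41), the call in TBC-like cells was lost without P28 replicate 1 or without P28 replicate 2 (1.35 and 1.53), and the value in SGN-like cells turned to −0.08 with the study's limits of 3000 genes and 15000 UMIs.

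*Myl4* was high in B cell-like cells, which held 66, 27 and 38 cells in the 3 libraries and no UMI of *Otof*. It was at 132, 250 and 88.6 CPM in them, from 16, 23 and 11 UMIs, against a mean of 4.83 CPM in the rest (log2 fold change 5.41 ± 0.57, SE, with an adjusted p of 2.59e-09, edgeR, background 6.87%). The call was lost without P28 replicate 1 (4.07 on the log2 scale). At P28 its interval in B cell-like cells overlapped that of IHC-like cells in both libraries. At P14 red blood cell-like cells had 132 CPM of *Myl4* from 39 UMIs, against 3.02 and 0 CPM at P28. Of these 50 cells 44.0% were among the barcodes with the highest doublet scores of the library.

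*Bmp3* outside the hair cells came almost wholly from 1 class of 1 library. In P28 replicate 2, 43 bone cell-like cells, named by *Bglap*, *Bglap2* and *Ibsp*, held 69 of the 73 UMIs of *Bmp3* found outside the hair cells. Its level there was 539 CPM, above the 76.7 CPM of OHC-like cells. The bone cell-like cells of P14 had 15.8 CPM from 2 UMIs, and the 10 such cells of P28 replicate 1 had none in 15514 UMIs, where 3 UMIs would be 193 CPM and the exact 95% upper limit is 238 CPM. The gene did not pass the count filter of the test of this class.

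**Figure D2:**
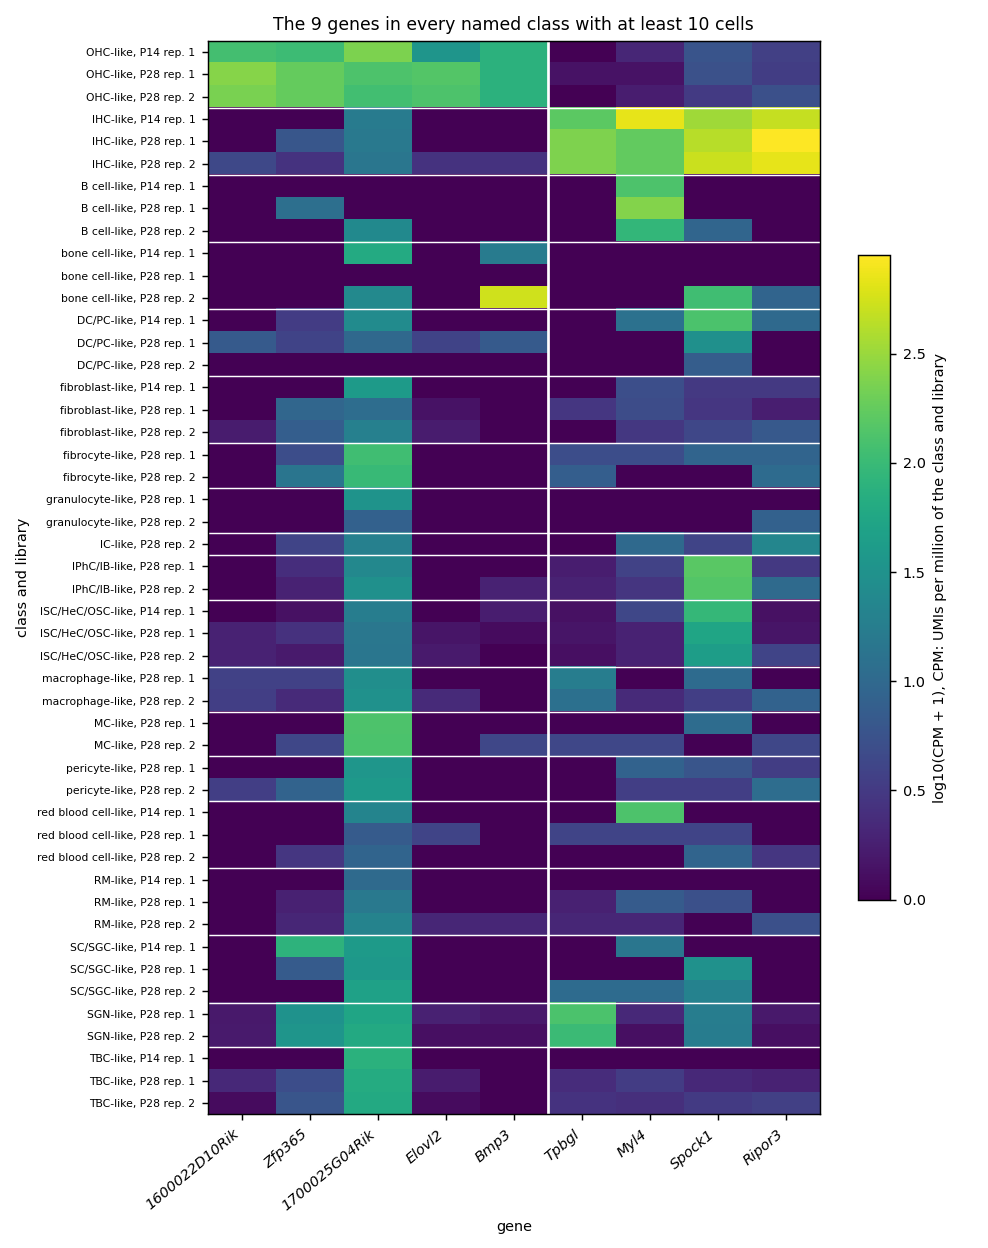
Level of the 9 genes (columns) in each named class and library with at least 10 cells (rows), as log10 of CPM plus 1. Elovl2 and 1600022D10Rik are bright only in the 3 OHC-like rows, whereas Tpbgl is bright also in SGN-like, Spock1 in IPhC/IB-like, Myl4 in B cell-like and Bmp3 in bone cell-like cells of P28 replicate 2.

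**Figure D3:**
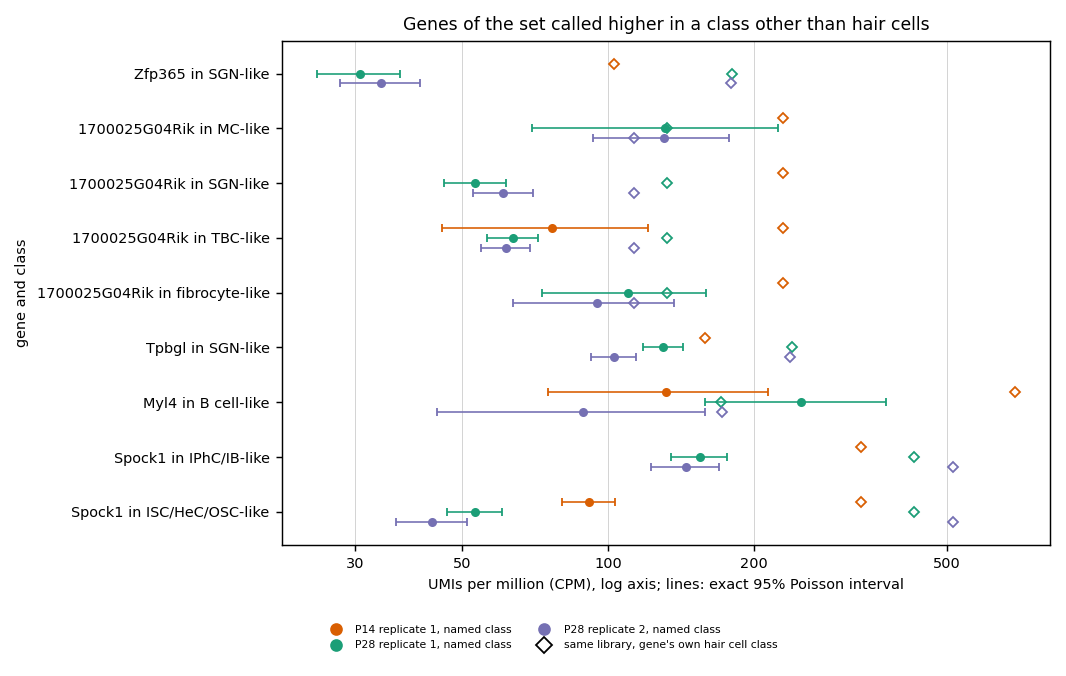
CPM (log axis) of the genes called higher in a class other than hair cells, with 1 filled point per library and its exact 95% Poisson interval, and open diamonds for the same gene in its own hair cell class of each library. The diamonds of the P28 libraries lie within the intervals for 1700025G04Rik in MC-like and fibrocyte-like cells, whereas Tpbgl in SGN-like cells lies below them at 130 and 103 CPM.

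Across 47 sums of 19 classes, the Pearson correlation of log2(CPM + 10) gave the genes most like each one. The sums share libraries and differ in depth, so these values are a description. They also include the hair cell sums for which the genes were chosen. Likeness to other genes of the same hair cell class thus partly repeats that choice. *Elovl2* and *1600022D10Rik* were each the closest to the other among 6702 genes (r = 0.984), followed in both cases by *4930558C23Rik* (0.941 and 0.966). *1600022D10Rik* was next closest to *Chrna10*, a subunit of the acetylcholine receptor of OHCs (0.952), and *Elovl2* to *C1ql1*, a secreted C1q-like protein (0.940). *Zfp365* was closest to *Cacng5* (0.873), *Mpped1* (0.868) and *Ccdc74a* (0.861). *1700025G04Rik* was closest to *Nrxn2* (0.726), *Kcnn2* (0.721) and *Dnajc18* (0.678), and *Kcnn2* encodes the calcium-activated potassium channel that serves the efferent synapse of OHCs. *Bmp3* was closest to *Pth1r*, the parathyroid hormone receptor of bone (0.734), *Dlx3* (0.729) and *Lipc* (0.715).

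Among the IHC-biased genes *Tpbgl* was closest to *Rims2*, a protein of the presynaptic active zone (0.880), *Cabp1* (0.865) and *Calb2* (0.864). *Myl4* was closest to *Nrgn* (0.882), *Atp2a3* (0.833) and *Slc1a5* (0.732). *Spock1* was closest to *Fzd4* (0.849), *Tmem117* (0.820) and *Sox21* (0.809). *Ripor3* was closest to *March4* (0.966), *Bcas3os1* (0.930) and *Dnajc5b* (0.915), the last being one of the markers that named the IHC-like class.

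Relatives of the 9 genes were more often lower than higher in OHC-like cells. In OHC-like against IHC-like cells, 48 of 79 related genes passed the count filter, of which OHC-like cells had 5 higher and 21 lower (edgeR quasi-likelihood test with a term for the library). Of all 9505 genes tested 16.7% were higher and 17.2% lower, and the median log2 fold change was −0.50 over the related genes and 0.05 over all genes. The counts depended on the cells and on the fit. With the study's limits of 3000 genes and 15000 UMIs they were 0 and 4, without P28 replicate 1 they were 2 and 8, without P28 replicate 2 they were 2 and 13, and without P14 they were 10 and 24.

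Of 16 genes of fatty acid elongation and desaturation 10 were tested, and OHC-like cells had 0 higher and 7 lower, against the direction of *Elovl2*. The elongase of saturated fatty acids *Elovl1* had 9.06, 19.4 and 22.9 CPM in the OHC-like sums against 35.7, 63.9 and 58.9 CPM in the IHC-like sums (log2 fold change −1.48 ± 0.23, adjusted p = 0.000848, edgeR). The others of the 5 with the smallest adjusted p were *Hacd3* (−0.70 ± 0.15), *Hacd1* (−0.92 ± 0.20) and *Hacd2* (−1.28 ± 0.31), dehydratases of the elongation cycle, and *Elovl5* (−1.46 ± 0.40), which acts on the polyunsaturated chains one step before *Elovl2*. None of the 7 calls was kept with the study's limits, where *Hacd1* (−0.69), *Hacd3* (−0.43) and *Fads2* (−0.55) no longer passed, *Elovl4* turned to 0.25, and *Elovl1*, *Elovl5* and *Hacd2* were not tested. Without P28 replicate 1 only the call of *Elovl1* was kept, and without P28 replicate 2 those of *Hacd3*, *Elovl4* and *Fads2* were lost.

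The BMP ligands that could be tested also ran against *Bmp3*. Of 10 ligands 3 were tested and all 3 were lower in OHC-like cells. *Bmp6* had 4.26, 13.4 and 11.5 CPM in the OHC-like sums against 67.3, 54.6 and 77.4 CPM in the IHC-like sums (−2.50 ± 0.33, adjusted p = 0.000287, edgeR). *Gdf6* (−2.31 ± 0.31) was lower in all 3 libraries, at P14 only by 6.40 against 7.92 CPM, whereas *Bmp7* (−1.34 ± 0.43, adjusted p = 0.0359, edgeR) was lower in 2 of 3, and it was no longer called without either P28 library. Of 6 receptors *Bmpr1a* (−1.11 ± 0.17) and *Bmpr1b* (−0.95 ± 0.26) were lower and *Acvr2a* (0.64 ± 0.19) was higher. The antagonist *Chrd* was at 11.9 to 13.5 CPM in IHC-like cells and had 0, 1 and 0 UMIs in OHC-like cells, with a fitted log2 fold change of −5.43 ± 0.84, and 2 of 9 antagonists were tested. Of 9 transducers and targets tested, *Id1*, a direct target of BMP signalling, had 5.33, 12.6 and 27.3 CPM in the OHC-like sums against 95.1, 161 and 160 CPM in the IHC-like sums (−3.16 ± 0.28, adjusted p = 2.38e-05, edgeR). *Id3* (−0.89 ± 0.15), *Smad1* (−1.08 ± 0.25) and *Smad6* (−1.12 ± 0.26) were lower too and *Smad7* was higher (0.66 ± 0.17). The calls of *Acvr2a*, *Bmpr1b*, *Smad6* and *Smad7* were also lost without either P28 library, and that of *Smad1* without P28 replicate 2. With the study's limits these 5 genes, *Bmpr1a* and *Id3* were not called, *Bmp6*, *Bmp7*, *Gdf6* and *Chrd* were not tested, and *Id1* was still called lower.

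The matrix proteins related to *Spock1* split both ways. Of 5 tested genes, OHC-like cells had 2 higher and 3 lower. *Smoc2* had 10.7, 52.7 and 61.7 CPM in the OHC-like class and had 0, 0 and 1 UMIs in IHC-like cells, with a fitted log2 fold change of 6.39 ± 0.56 (adjusted p = 2.36e-05, edgeR). *Sparc* had 229, 191 and 165 CPM in the OHC-like sums against 1216, 1219 and 1214 CPM in the IHC-like sums (−2.52 ± 0.15, adjusted p = 3.18e-06, edgeR). *Smoc1* (−2.24 ± 0.46) and the testican *Spock2* (−0.63 ± 0.16) were lower, and *Sparcl1* (1.32 ± 0.27) was higher in 2 of 3 libraries. The call of *Sparcl1* was lost without either P28 library, and its direction turned with the study's limits (−1.17 ± 0.67). The call of *Smoc1* was lost without P28 replicate 1 and that of *Spock2* without P28 replicate 2. With the study's limits *Smoc2* was not tested. Of the 4 myosin light chains tested, from a list of 11, none was called at an adjusted p under 0.05 in edgeR, and 1 of them, *Myl12b*, had an unadjusted p under 0.05 (0.0322, with a log2 fold change of 0.39 ± 0.16).

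Of the 5 partners of *Zfp365* on the list, 1 was called higher in OHC-like cells. As 16.7% of all genes tested were called higher, this number is near the background. *Disc1*, a scaffold protein of neurons, had 106, 29.2 and 24.4 CPM in the OHC-like sums against 7.92, 4.12 and 13.5 CPM in the IHC-like sums (2.43 ± 0.43, adjusted p = 0.00183, edgeR). With the study's limits *Disc1* was not tested. The other 4 partners on the list, *Nde1*, *Ndel1*, *Pafah1b1* and *Pcnt*, were tested and not called. The family member of *Ripor3* that could be tested, *Ripor2*, was not called and had 45.3, 75.4 and 59.5 CPM in the OHC-like sums against 43.6, 87.6 and 84.1 CPM in the IHC-like sums (−0.13 ± 0.18). *Tpbg*, the only listed relative of *Tpbgl*, had too few UMIs in hair cells to be tested, at 0.533 to 4.30 CPM in OHC-like cells and 0 to 2.06 CPM in IHC-like cells.

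Some sets of supporting cell markers were lower in OHC-like cells too. The 5 markers of ISC/HeC/OSC cells summed to 404, 1513 and 1300 CPM in IHC-like and to 214, 413 and 403 CPM in OHC-like cells, beside the IPhC/IB markers given above. The DC/PC markers summed to 51.5, 45.3 and 85.8 CPM in IHC-like and to 20.3, 71.3 and 136 CPM in OHC-like cells. These were thus higher in the OHC-like class in both P28 libraries. *Sparc*, *Id1*, *Bmp6* and *Elovl1* were at 558 to 3837, 102 to 222, 34.6 to 113 and 57.2 to 73.2 CPM in all cells other than hair cells. The part of supporting cell RNA in the differences of the related genes was not tested. Without the barcodes of highest doublet score 4 related genes were higher and 17 lower.

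**Figure D4:**
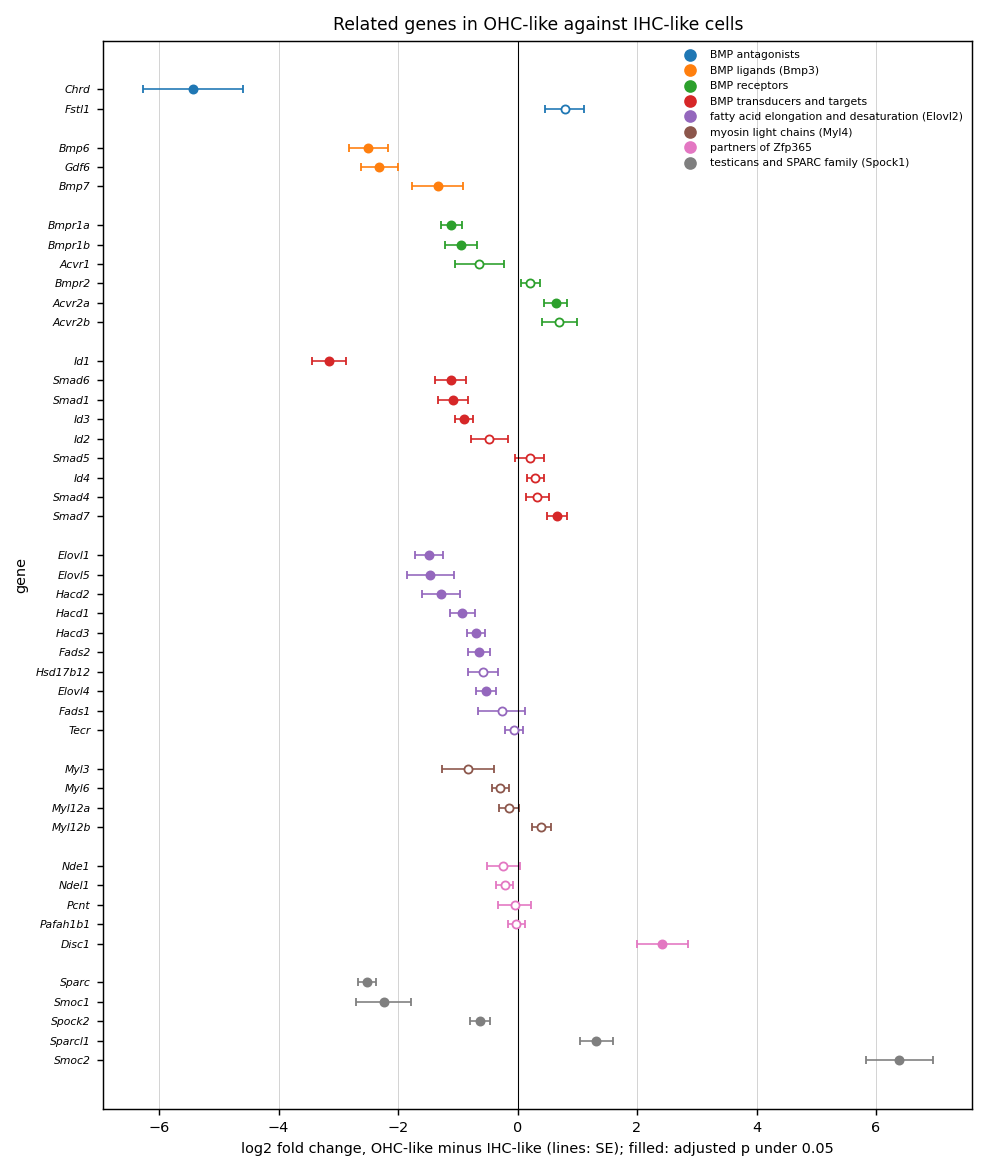
Log2 fold change of 44 of the 48 tested related genes in OHC-like minus IHC-like cells, with the SE as a line, grouped and coloured by list, filled where the adjusted p (edgeR) was under 0.05. Most filled points of fatty acid elongation and BMP signalling lie left of 0, Elovl1 at −1.48 and Id1 at −3.16 among them, while Smoc2 at 6.39 and Disc1 at 2.43 lie to the right.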

How the data were processed

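Single-cell RNA was measured in 3 libraries, each pooled from 14 cochleae of 7 mice (1 at P14, 2 at P28). The authors deposited raw UMI counts per gene and barcode, aligned to mm10. The file header names Cell Ranger 5.0.1 and the submitters' processing notes name 6.0.1. Barcodes with 200 to 6000 genes and at most 15% mitochondrial UMIs were clustered per age in Seurat 5.3.0 (2000 variable genes without the 9 genes and their listed relatives, 30 components, resolution 1, anchor integration at P28). Clusters were named from at least 3 fixed markers. No barcode was removed as a doublet, and leaving out the highest 8% of Scrublet scores (scanpy 1.11.5) was an alternative. Because classes were rebuilt here, they may differ from the authors' own.

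Counts were summed per class and library (at least 10 cells) and tested with edgeR 4.0.16 in R 4.3.3 (quasi-likelihood, TMM, default expression filter, Benjamini-Hochberg adjustment, threshold 0.05). The library was a term wherever 3 libraries entered. Class sums of 1 library come from the same mice, and their deviations correlated at 0.514, 0.406 and 0.361. P-values rest on the spread between pooled libraries together with a dispersion that edgeR moderates over all genes. SGN-like, IPhC/IB-like, MC-like, fibrocyte-like, macrophage-like, pericyte-like and granulocyte-like cells were tested on 2 libraries without a library term. The pairing of class and rest was left out there, and their small p-values lean on this moderation. Levels are CPM (UMIs per 1000000 UMIs of a sum) with exact 95% Poisson intervals, which cover counting error only. On simulated data, 168 of 200 genes changed 4-fold were recovered in the hair cell comparison with 6 false calls among 9489 genes. The simulated counts had a fixed dispersion and no library effect, and genes with few UMIs were not among those changed. These rates therefore do not carry over to genes with few UMIs or to libraries that differ.

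The 9 genes, the lists of relatives and the markers were chosen with earlier results of these data known. Named relatives were the 5 of each list with the smallest adjusted p among those called, and *Elovl4*, *Fads2*, *Myl12b*, *Ripor2*, *Tpbg* and the uncalled partners of *Zfp365* were named after their values were seen. The list that holds *Ripor2* is otherwise not reported here. The 3 most alike genes were taken among genes reaching 100 CPM in 1 sum of at least 20000 UMIs. Gene models came from GENCODE M21, which held 32235 of the 32285 identifiers. Alternatives were other cell limits, resolution, integration, DESeq2 1.42.0, count filters, no library term and each library left out.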

Additional observations from a re-analysis of the deposited data

How the results depend on the processing

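With the study's limits of 3000 genes and 15000 UMIs, 452 genes were higher and 439 lower in OHC-like than in IHC-like cells, 0 and 4 of them related genes, and 13 pairs of gene and class were lower outside the hair cells. Under the same limits *Sparcl1* turned to −1.17, *Elovl4* to 0.25 and *1700025G04Rik* in SGN-like cells to −0.084 on the log2 scale. DESeq2 called 885 genes higher, 2 of them related. With at least 10 UMIs in every sum, 870 were higher and 812 lower, with 2 and 11 related genes, and 3 pairs were lower. Without the library term as a replicate block, which pairs the class sums, 783 were higher and 935 lower, with 2 and 11 related genes. Leaving out 1 library gave 683 to 2370 genes higher, 830 to 2559 lower, 2 to 10 and 8 to 24 related genes, and 0 to 10 and 0 to 27 pairs. The causes of these changes were not tested. Over all alternatives the 26 called related genes kept their direction and call in 222 cases and lost the call in 60, and the pairs in 230 and 50. Cases in which a gene could not be tested are not counted. The kept pairs include classes fitted on 2 libraries, for which leaving out P14 or the library term repeats the same fit. The calls of *Tpbgl* and *Zfp365* in SGN-like and of *Spock1* in IPhC/IB-like cells were lost in none of the fits that could be made. These classes were named in the P28 libraries only, so neither P28 library could be left out for them. Leaving out P14 or the library term does not change their fit. IHC-like cells at P14 held few UMIs, which limits every value there.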
